A study of Mus musculus with 2 samples.

Results

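CTCF peaks at the 3' ends of protein-coding genes were examined in limb tissue of mouse embryos. CTCF is a zinc finger protein that binds a long asymmetric DNA motif, blocks the movement of the cohesin ring along DNA and so anchors chromatin loops. The direction of the motif matters, since loop anchors are known to carry motifs that face each other. The 3' end of a gene is where transcripts are cleaved and polyadenylated and where RNA polymerase leaves the template, and cohesin is known to gather at the ends of converging genes when CTCF and the cohesin release factor are both removed. Whether CTCF itself favours ends that face another gene's end is the comparison made here.

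Both libraries, numbered replicate 1 and replicate 2, came from 1 pool of pulverised limbs of B6NCrl embryos at 14.5 days, male and female together, precipitated with an antibody to CTCF. They form 1 group with no other genotype or treatment, so no test between groups of samples can be made, and the spread between them may be technical. The limb at this age holds cartilage, muscle, skin and vessels, and peak positions carry no marker of cell type. Of the 49970 peaks that the submitters' optimal list holds, 48806 lay on chromosomes 1 to 19. A peak belonged to the gene ends where its summit lay within 2 kb of the 3' end of a protein-coding gene of GENCODE M21, over 1 kb from every annotated transcription start site (TSS) and outside coding sequence (CDS). Of 3566 summits within 2 kb of such an end, 1023 lay too close to a TSS and 238 in CDS, which left 2305 peaks, 4.72% of the autosomal peaks. Signal is the submitters' own value per peak. It has no stated unit, and each list has its own scale. Over these peaks it ran from 5.19 to 477.4, and the read depth behind it is unknown.

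The motif sites of the 10 strongest gene-end peaks are shown because every result on motif direction rests on reading such a site on one strand. Each is written 5′ to 3′ on the strand that carries the motif, from the GRCm38.p6 assembly (mm10), with the 20 bases scored in capitals and 5 flanking bases on each side in lower case.
Gna15, chr10:81502810-81502839, plus strand: acgcgCGGCCACCAGGGGGAGGTATgtcct
Ptges2, chr2:32404905-32404934, minus strand: gaaatTGGCCACAAGGTGGCAGCACcatgt
Rrp15, chr1:186722132-186722161, minus strand: cacgaCTGCCACACGGTGGTGCTGTtgttc
Zmynd8, chr2:165782505-165782534, plus strand: gcacaTGGCCACCAGGTGGCGAGGGaggca
Ivd, chr2:118883565-118883594, minus strand: gcggaTGGCCGGTAGGGGTCAGGCGagctc
Gltp, chr5:114667711-114667740, minus strand: ccgcgTGTCCGGTAGGTGGCGCTGTccgca
Srxn1, chr2:152112099-152112128, plus strand: ttcctTCACCAGTAGGTGGCGCTGCtctcc
Dnajc11, chr4:151981548-151981577, plus strand: gtgagTGGTCAGCAGGTGGCGCTGCtgccc
Ptp4a3, chr15:73757341-73757370, minus strand: agggaTGGCCACCAGAGGGCGCCATggagg
Ddx1, chr12:13215082-13215111, minus strand: agttcTGTACACTAGGTGGTGCTAGtgtcg
Only 3 of the 20 positions, counted from 1 at the first capital, held the same base in all 10 sites: C at position 5, G at position 10 and G at position 13. A site on the strand of the gene that ends there is called sense below, and one on the opposite strand antisense. Of these 10 sites, those at Rrp15, Gltp, Srxn1, Dnajc11 and Ddx1 were sense and the others antisense.

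The strongest gene-end peak lay in an exon of Gna15, which encodes a G protein alpha subunit. Its summit (81502832 on chromosome 10) was at -526 bp from the gene's end. A negative distance is on the gene side of the end, called inside here, and a positive one past it. Distance was taken from the end alone, so for genes shorter than the distance, inside includes sequence upstream of the start. The pooled signal of the Gna15 peak was 477.4, with 264.7 in replicate 1 and 214.0 in replicate 2 (239.3 ± 35.9, SD, n = 2). The downstream neighbour, the sphingosine phosphate receptor gene S1pr4, has the same direction and starts 2173 bp further on. Next came a peak in an exon of Ptges2, a prostaglandin E synthase gene, at -886 bp from its end (summit 32404886 on chromosome 2), with 448.4 pooled and 228.1 and 223.6 in the replicates. The mitochondrial carrier gene Slc25a25 faces that end across 8714 bp. An intronic peak of Rrp15, a gene of ribosomal RNA processing, had 435.4 (217.0 and 218.3) and lay at -1165 bp. For scale, the median gene-end peak had 44.8 in replicate 1 and 42.6 in replicate 2.

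Past the end of Zmynd8, a chromatin reader gene whose end faces that of Eya2, a peak 1633 bp downstream had 434.6 (223.8 and 207.3). One 664 bp past Ivd, a leucine catabolism enzyme gene, had 431.5 (231.1 and 200.9). The peak 1644 bp past Gltp, the glycolipid transfer protein gene, had 419.3 (213.7 and 201.1) and lay between that gene and the channel gene Trpv4. The peak past Srxn1, which encodes the antioxidant enzyme sulfiredoxin, had 416.3 (207.9 and 210.2), at 735 bp. In all 4 the summit lay past the annotated end and before the next protein-coding gene. Inside Dnajc11 (mitochondrial J protein) and Ptp4a3 (a phosphatase), exonic peaks had 412.6 (214.9 and 201.3) and 411.5 (215.6 and 197.1), and both genes face another gene's end, across 501 and 2643 bp. The tenth, 1896 bp past the RNA helicase gene Ddx1 in the gap of 275058 bp before Mycn, had 409.3 (206.7 and 205.0). The 5 strongest peaks at ends that face another gene's end were those of Ptges2, Zmynd8, Dnajc11 and Ptp4a3 and one past Enoph1 with 400.3 (199.6 and 198.7).

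Gene-end peaks had a higher median signal, in the pooled list and in each library, than the other peaks of comparable position, those over 1 kb from a TSS, outside CDS and not at a gene end. Their median signal was 85.1 (quartiles 36.2 and 185.9) against 59.7 (30.1 and 146.6) for the 35281 others. Replicate 1 gave 44.8 against 31.1 and replicate 2 gave 42.6 against 29.6. Peaks within 1 kb of a TSS had a median of 52.1 and peaks in CDS 51.3. A median in this range was not limited to the 2 kb window: counted among the other peaks, those 2 to 5 kb past an end had 90.1 and those 5 to 10 kb past it 82.9, while those 2 to 5 kb inside had 73.4 and those 5 to 10 kb inside 71.5. The ranges between quartiles overlapped widely, so that position tells little about a single peak. By decile of signal over all autosomal peaks, the strongest decile (240.1 or more) held 333 gene-end peaks, 14.4% of them, and the weakest (20.8 or less) held 158, 6.86% of them. Of the gene-end and other comparable peaks together, gene-end peaks made up 8.63% in the strongest decile, 4.498% in the weakest and 6.13% over all deciles.

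**Figure D1:**
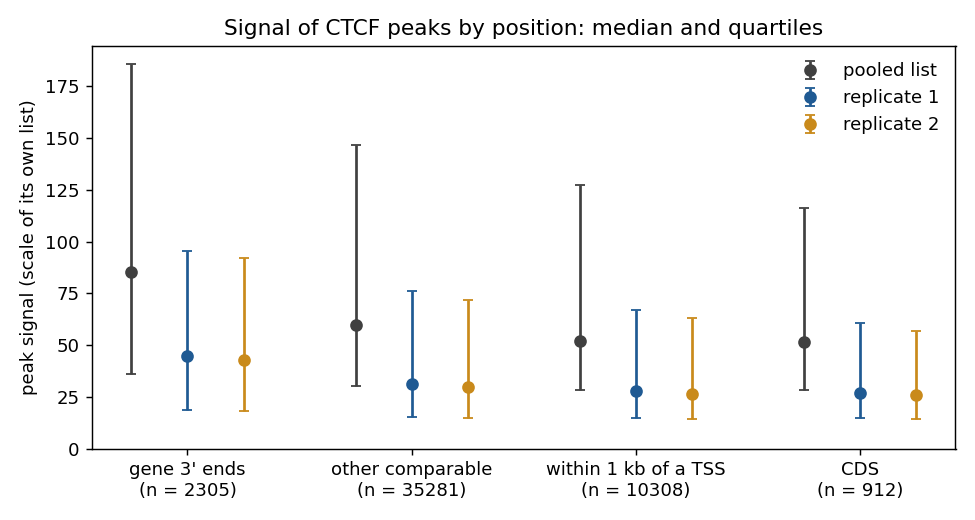
Peak signal by position, as the median (point) with the first and last quartile (bars), in the pooled optimal list and in each replicate list, each on its own scale. Gene 3' ends have the highest median in each list, 85.1 pooled, 44.8 in replicate 1 and 42.6 in replicate 2.

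Most of these peaks were found in both libraries. Of the 2305, 1989 (86.3%) were matched within 100 bp by a summit among the strongest 49970 of replicate 1 and of replicate 2, and 86 by none in either list, while the share in both was 81.8% for the other comparable peaks and 78.5% near a TSS. The optimal list was made from both replicate lists, so part of this overlap is set by its making. For the 2258 matched in the full list of each library, the log2 ratio of replicate 1 to replicate 2, scaled to their medians, had an SD of 0.46. The peaks that differed most were weak. The peak 863 bp past Bmp1, a procollagen protease gene, had 19.97 in replicate 1 and 3.34 in replicate 2, that inside Galnt18 had 19.6 and 3.94, and that past Wasf2 had 16.5 and 3.41. In the other direction, the peaks past Pms2, Edrf1 and Calhm1 had 3.46, 3.24 and 3.45 in replicate 1 and 17.45, 15.05 and 13.5 in replicate 2.

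A CTCF motif, at a score that 5% of windows 1 kb away reached over all autosomal peaks, lay within 50 bp of the summit of 2006 gene-end peaks (87.0%, exact 95% interval 85.6 to 88.4). The share was 86.3% (86.0 to 86.7) at the other comparable peaks, 63.8% near a TSS and 76.5% in CDS. Windows 1 kb from gene-end peaks reached the score in 5.86% of cases and those beside the other comparable peaks in 4.84%. The intervals of gene ends and of other comparable peaks overlap, so a difference in motif share was not detectable between them. Within the gene ends the share followed signal, with 98.2% in the strongest decile and 60.1% in the weakest, and peaks with a motif had a median of 100.4 against 31.1 without. The median GC content within 100 bp of the summit on either side was 50.2% at gene ends, 48.3% at other comparable peaks and 57.7% near a TSS. Summits in repeat-masked sequence made up 16.8% at gene ends, 20.1% at other comparable peaks and 9.59% near a TSS.

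Summits fell past the end of the gene more often than before it. Of the 2305, 1370 (59.4%) lay past the end and 606 (26.3%) in an exon of the gene, which outside CDS means untranslated or noncoding exon sequence. The other 329 (14.3%) lay on the gene side of the end outside the gene's exons and are called intronic. For short genes these can include summits upstream of the start. Of those past the end, 202 lay inside another protein-coding gene. Median signal was 89.3 past the end, 78.3 in exons and 76.7 for the summits called intronic. Sequence past the end is also more often eligible, since less of it is CDS, so densities per eligible megabase (Mb) are the fairer measure. They were 41.5 summits per Mb (39.4 to 43.8, exact Poisson 95% interval) in the 2 kb past the end and 32.9 (30.9 to 35.1) in the 2 kb inside it. The step lay at the end itself, with 29.9 per Mb (26.2 to 34.0) in the last 500 bp of the gene and 43.3 (39.1 to 47.9) in the first 500 bp past it. GC content, 41.9% and 44.2% in those stretches, differed in the same direction, and its part in the step was not tested.

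The highest density of any 500 bp bin lay just beyond the 2 kb window, at 2 to 2.5 kb past the end, with 44.5 per Mb (39.8 to 49.5), and its interval overlaps that of the first 500 bp. Over longer stretches the density was 38.7 per Mb (36.9 to 40.6) at 2 to 5 kb past the end and 32.8 (31.3 to 34.3) at 5 to 10 kb. On the gene side it was 32.1 (30.3 to 33.9) at 2 to 5 kb and 30.4 (29.0 to 31.7) at 5 to 10 kb inside. The higher densities thus lay on the downstream side and extended past the 2 kb window. The 2 kb on the gene side held about as many summits per Mb as the stretches further from the end on that side. For genes shorter than these distances, those stretches include sequence upstream of the start. Just within the 2 kb limit, at 1.5 to 2 kb from an end, lay 514 peaks with a median signal of 89.0, and just outside it, at 2 to 2.5 kb, 518 with 86.2.

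**Figure D2:**
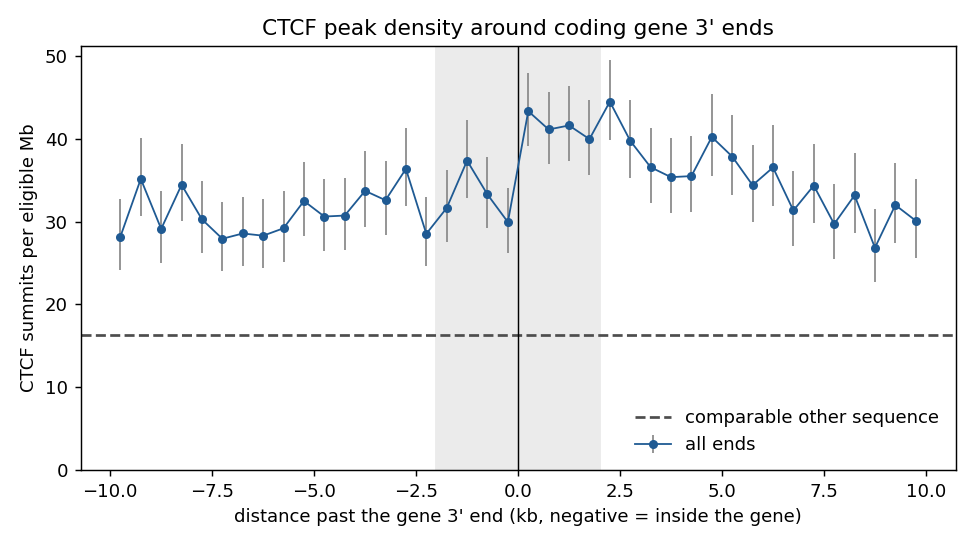
CTCF summits per eligible Mb in bins of 500 bp by distance from the nearest coding gene 3' end (points, with exact Poisson 95% intervals), the 2 kb window shaded, and the density in comparable other sequence as a dashed line at 16.3 per Mb. Density is 29.9 per Mb just inside the end, 43.3 just past it, highest at 2 to 2.5 kb past it (44.5), and 30.1 in the last bin before 10 kb. Negative distances are the gene side of the end, which for short genes includes sequence upstream of the start.

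Set against random positions, gene ends were occupied more often. The eligible gene-end sequence covers 61.4 Mb, 2.56% of all non-gap autosomal bases, and holds 4.72% of the peaks, 1.84 times its share. The ratio was 1.86 for CDS, slightly above that of gene ends, 3.36 for sequence within 1 kb of a TSS and 0.802 for the other comparable sequence. Gene ends had 37.6 summits per Mb against 16.3 in the other comparable sequence, a ratio of 2.3 (exact interval 2.204 to 2.399, exact conditional binomial test, two-sided, p = 3.26e-260, adjusted p = 6.51e-260 over 2 tests). Each replicate list alone gave 2.31. Gene-end sequence is richer in GC (43.9% against 41.5%) and poorer in repeats (25.6% against 34.8%). Outside repeats the ratio was 2.10, and against sequence inside protein-coding genes or within 10 kb of one it was 1.67. Peaks are not independent replicates, so this p covers counting error alone and is too small.

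Of 20807 protein-coding gene ends, 2310 had at least 1 of these peaks within 2 kb, which is 11.1%. A single peak was found at 2087 of these ends, 2 peaks at 201, 3 at 19 and 4 at 3. Among the peaks, 231 lay within 2 kb of more than 1 gene end, and for 218 of those the ends were on opposite strands. The 3 ends with 4 peaks were those of Clec1a and Clec9a, lectin receptor genes of myeloid and dendritic cells whose ends almost touch on chromosome 6, and of Thap3 on chromosome 4. The first pair shares 1 strong peak (summit 129423874, signal 213.3, 110.5 and 101.6 in the replicates) and 3 weak ones with 8.09 to 19.05, and none of the 4 had a motif. Thap3 shares the 412.6 peak of Dnajc11 and has 3 others with 20.02 to 29.5. At each of the 3 ends, 1 strong peak stood among weak ones.

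Ends that face another end were compared with ends that run into the start of the next gene. An end was classed as tail-to-tail where the next protein-coding gene downstream lies on the opposite strand (7814 ends), as head-to-tail where it lies on the same strand (9914), and as overlapped where the end lies inside another protein-coding gene (3061, of which 2208 are overlapped by a gene on the opposite strand). The other 18 have no downstream neighbour. Each peak was counted at its nearest end, which gave 892 tail-to-tail, 1138 head-to-tail and 275 overlapped peaks.

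CTCF density did not differ detectably between tail-to-tail and head-to-tail ends. Tail-to-tail ends had 38.3 summits per eligible Mb (35.8 to 40.9) and head-to-tail ends 36.01 (33.95 to 38.2), a ratio of 1.06 (exact interval 0.973 to 1.16, exact conditional binomial test, two-sided, p = 0.171, adjusted p = 0.171 over 2 tests). The interval reaches from a slightly lower density to one 1.16 times as high, and it does not show that the classes are alike. On 12 of 19 autosomes the tail-to-tail density was the higher. Replicate 1 alone gave 1.06 and replicate 2 alone 1.03. With all sequence within 2 kb of a TSS left out, the ratio was 1.11 (exact test, p = 0.0401), the only alternative in which it passed 0.05. Overlapped ends had 42.9 per Mb (37.97 to 48.3). Counted by gene, 931 tail-to-tail ends (11.9%, exact interval 11.2 to 12.7) and 1019 head-to-tail ends (10.3%, 9.69 to 10.9) had a peak. These shares take no account of how much sequence was eligible at each end, and in them 1 peak between close tails counts for both genes.

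Density went with the distance to the next gene in both classes. Where the downstream gap was under 5 kb, tail-to-tail ends had 49.7 summits per Mb and head-to-tail ends 52.0. From 5 to 20 kb they had 42.2 and 39.2, from 20 to 100 kb 30.1 and 30.9, and over 100 kb 21.5 and 22.2. The ratios were 0.957 (0.813 to 1.13), 1.08 (0.928 to 1.25), 0.975 (0.809 to 1.17) and 0.969 (0.705 to 1.33), with adjusted p of 0.877 in each of the 4 exact tests. Neither class was the denser in all 4 ranges, and in both the density was highest in the shortest gaps and lowest in the longest.

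**Figure D3:**
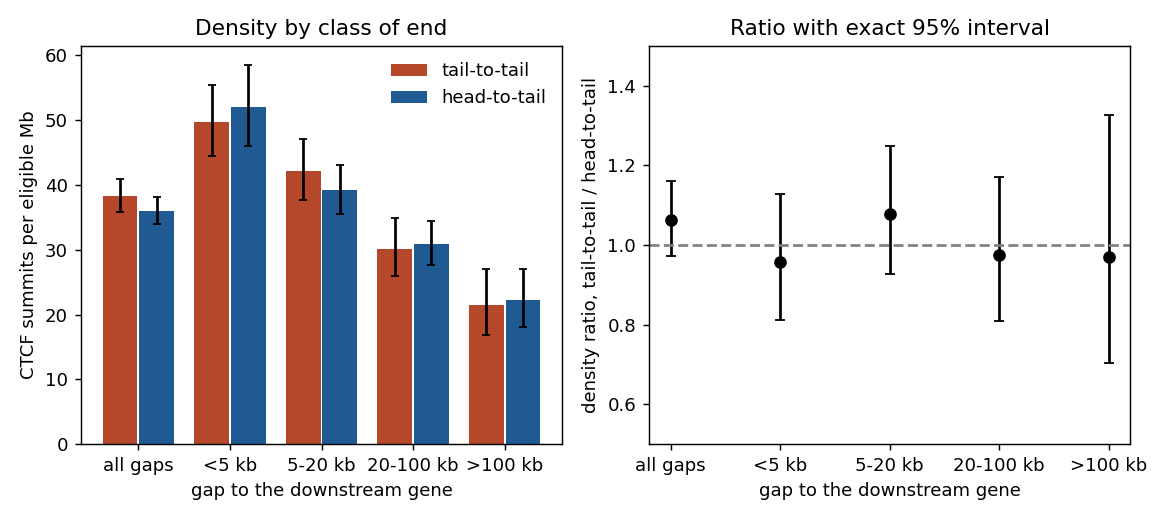
Left, CTCF summits per eligible Mb at tail-to-tail and head-to-tail ends, for all gaps and by the length of the gap to the downstream gene (bars, with exact Poisson 95% intervals). Right, the ratio of the 2 densities with its exact 95% interval, which spans 1 in each group, while the densities themselves decline from 49.7 and 52.0 per Mb in gaps under 5 kb to 21.5 and 22.2 in gaps over 100 kb.

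The median signal was in the same range, with a value of 91.5 (quartiles 35.0 and 199.5) at tail-to-tail, 85.3 (36.9 and 182.7) at head-to-tail and 72.4 (32.2 and 157.9) at overlapped ends. Replicate 1 gave medians of 46.5, 45.1 and 38.3 and replicate 2 gave 44.0, 42.4 and 35.6, in the same order. The motif share was 85.7% (83.2 to 87.9) at tail-to-tail, 88.0% (85.9 to 89.8) at head-to-tail and 87.6% (83.2 to 91.3) at overlapped ends. These intervals overlap.

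Of 3906 gene pairs that end tail-to-tail, 435 (11.1%) had a gene-end peak between the 2 ends. In the 1303 pairs with ends under 4 kb apart, where the whole gap lies within reach of an end, 92 (7.06%) did. These shares take no account of how much eligible sequence lay between the ends, which is less in a short gap. Per eligible Mb within 2 kb on both sides of the end, tail-to-tail ends with gaps under 5 kb had 49.7 summits and those with gaps over 100 kb had 21.5. That density includes the gene side, so it does not measure the sequence between the ends. The shortest tail-to-tail gap with a peak was 113 bp, between Poldip2 and Tnfaip1 on chromosome 11, with a summit at 78522766 and a signal of 50.8 (24.8 and 26.8). It was followed by the splicing factor gene Prpf40b and the formin gene Fmnl3 on chromosome 15, 206 bp apart, with 208.4 (108.6 and 98.3) at 99317065. The third pair was Prr7 and the drebrin gene Dbn1 on chromosome 13, 274 bp apart, with 51.8 (28.9 and 23.9) at 55473355. Their sites are shown because each lies between 2 transcripts whose ends lie at most 274 bases apart.
Poldip2 to Tnfaip1, chr11:78522753-78522782, plus strand: ttaatCTTCCACCAGGGGGAGTGTGggtct
Prpf40b to Fmnl3, chr15:99317046-99317075, plus strand: actggGGACCAGCAGAGGGCACTCCagttc
Prr7 to Dbn1, chr13:55473386-55473415, minus strand: gctctGGGCCTCCAGGGGTTGATCTggcgt
The Prpf40b site scored 18.7 on the log2 scale of the motif matrix, the others 9.20 and 8.05, and the peak with the highest score was also the strongest of the 3.

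The direction of the motif did depend on position. Over all gene-end peaks with a motif, 1101 of 2006 (54.9%, exact interval 52.7 to 57.1) had it on the sense strand of the gene that ends there (exact binomial test against 50%, two-sided, p = 1.32e-05, adjusted p = 2.64e-05 over 4 tests). Peaks are not independent replicates, so the p of this and of the other tests of motif strand cover counting error alone and may be too small. At head-to-tail ends 580 of 1001 (57.9%, 54.8 to 61.0) were sense (exact binomial test, adjusted p = 2.25e-06) and at tail-to-tail ends 384 of 764 (50.3%, 46.7 to 53.9, adjusted p = 0.914). At overlapped ends 137 of 241 (56.8%, 50.3 to 63.2) were sense and did not pass the adjusted test (exact binomial test, p = 0.0391, adjusted p = 0.0521). The difference between head-to-tail and tail-to-tail ends was 7.68 percentage points (2.998 to 12.4, Fisher's exact test, two-sided, p = 0.00145, adjusted p = 0.00145 over 2 tests). This comparison was chosen after seeing the data, and its p and adjustment do not cover that choice. Replicate 1 alone gave 57.4% against 49.3%, and replicate 2 alone 57.7% against 50.3%. For the 218 peaks within 2 kb of ends on both strands, of which 142 were tail-to-tail and 2 head-to-tail, the label rests only on which end is nearer. Without them the shares were 57.96% at head-to-tail and 50.2% at tail-to-tail ends, a difference of 7.80 points (Fisher's exact test, p = 0.00228), a recount added after seeing the data.

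Sense motifs were more frequent past the end than inside it. Past the end 703 of 1210 motifs (58.1%, 55.3 to 60.9) were sense, and inside 398 of 796 (50%, 46.5 to 53.5), a difference of 8.10 points (3.65 to 12.5, Fisher's exact test, two-sided, p = 0.000411, adjusted p = 0.000823 over 2 tests). This comparison too was chosen after seeing the data, which its p and adjustment do not cover. Exonic and intronic summits had 49.6% and 50.7%. In replicate 1 the shares were 57.4% past and 48.7% inside, and in replicate 2 57.9% and 49.5%. Within each class of end the share was higher past the end than inside. It was 54.1% (49.3 to 59.0) against 45.5% (40.1 to 50.9) at tail-to-tail ends. At head-to-tail ends it was 60.2% (56.2 to 64.1) against 54.3% (49.2 to 59.3), and at overlapped ends 60.2% (52.5 to 67.6) against 48.6% (36.4 to 60.8). The 2 intervals overlap in each class, and no test was made within a class. The first 500 bp past the end had the highest share in any 500 bp bin over the 10 kb on either side, with 223 of 338 sense (66.0%, 60.7 to 71.0). There the classes were close, with 66.4% at tail-to-tail, 66.7% at head-to-tail and 62.5% at overlapped ends. The last 500 bp inside had 45.3% (38.3 to 52.4). These bins were singled out after their values were seen.

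The tilt continued beyond the window. At 2 to 5 kb past the end 56.0% (53.4 to 58.6) of motifs were sense and at 5 to 10 kb 55.5% (53.1 to 57.9). On the gene side the shares were 47.9% (45.0 to 50.9) at 2 to 5 kb and 47.5% (45.2 to 49.9) at 5 to 10 kb from the end. These gene-side stretches include sequence upstream of the start of shorter genes, so they are not shares of gene bodies alone. Some repeats carry CTCF motifs of their own. Summits outside repeats were sense in 932 of 1647 cases (56.6%, 54.2 to 59.0) and summits in repeats in 169 of 359 (47.1%, 41.8 to 52.4). Without repeats the difference between head-to-tail and tail-to-tail ends was 10.04 points (Fisher's exact test, p = 0.000153) and that between past and inside 7.83 points (p = 0.00171, exact test).

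**Figure D4:**
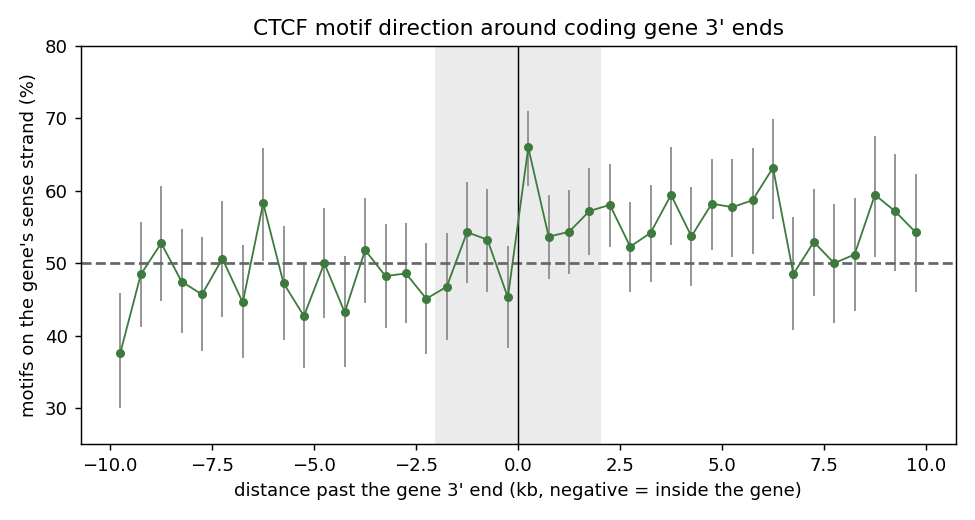
Share of CTCF motifs that lie on the sense strand of the nearest ending gene, in bins of 500 bp by distance from the 3' end (points, with exact 95% intervals), the 2 kb window shaded and 50% dashed. The bin just past the end has 66.0% and the bin just inside 45.3%. Negative distances are the gene side of the end, which for short genes includes sequence upstream of the start. The vertical axis starts at 25%.

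Genes with a gene-end peak had a promoter peak more often than other genes. Of 2310 such genes 956 (41.4%, exact interval 39.4 to 43.4) had an optimal summit within 1 kb of one of their own TSSs, against 6217 of 18497 others (33.6%, 32.9 to 34.3). The intervals do not overlap. Gap length, eligible sequence at the end and the number of annotated TSSs were not matched between these genes. Their part in the difference was not tested. In the 533 genes with a motif at the strongest peak of both sites, 131 (24.6%, 21.0 to 28.5) had motifs facing each other across the gene, 154 (28.9%, 25.1 to 32.9) had them facing apart, 141 (26.5%, 22.75 to 30.4) had both sense and 107 (20.1%, 16.7 to 23.7) both antisense. The intervals of the facing, diverging and both-sense arrangements overlap. That of both antisense lies below the diverging one and overlaps the facing and both-sense ones. No test of the order of these arrangements was made.

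The 8 gene lists chosen for this tissue are described against the 11.1% of all coding gene ends. Ribosomal protein genes, which are short and highly transcribed, had a gene-end peak in 16 of 54 cases (29.6%, exact interval 17.98 to 43.6), the highest share of the 8. Their strongest peaks were at Rps19 with 381.8 (208.8 and 174.6), at Rpl22 with 305.0 (166.5 and 135.4) and at Rps10 with 238.4 (128.4 and 114.8). Of the 16, 14 lay past the end, and of the 13 with a motif 10 were sense. The weakest, at Rps15, had 5.20 and no summit in either replicate list within 100 bp. The median downstream gap of this list was 6289 bp against 13530 bp over all genes with a gap. Ends with shorter gaps had denser peaks over all genes as well, and the part of gap length in this count was not tested.

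Limb patterning genes had peaks at 11 of 55 ends (20%, 10.4 to 33.0), with an interval that includes the 11.1% of all ends. Tail-to-tail ends made up 8 of these 11, and 931 of the 2310 coding gene ends with a peak. The median gap of the list was 90463 bp, and its part in the count was not tested. The strongest was at Tbx2, a T-box repressor gene of the limb margins, with 282.7 (155.5 and 132.6). Fgfr1, a receptor for the growth factors of the apical ridge, had 192.8 (100.8 and 92.5). Lmx1b, which sets dorsal identity, had 171.8 (81.7 and 90.1). Irx3 had 123.9 (80.5 and 46.7), and Pitx1, a hindlimb determinant, 84.6 (37.6 and 47.1). Tbx3 had 75.9, Dlx6 32.5, the Hedgehog receptor gene Ptch1 30.9, Sall1 26.8 and the retinoic acid degrading enzyme gene Cyp26b1 14.2. Of the 11, 9 lay past the end, and of the 10 with a motif 4 were sense.

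Hox genes had 4 of 39 (10.3%, 2.87 to 24.2), a share near that of all genes, and all 4 were head-to-tail ends within their clusters. Hoxd13 had 252.9 (133.3 and 122.8), Hoxd11 132.5 (68.4 and 62.1), Hoxb13 57.1 and Hoxa11 30.96. Each of these genes patterns the distal or posterior body or limb. Among cartilage and bone genes 6 of 39 (15.4%, 5.86 to 30.5) had a peak, led by Comp, a cartilage matrix protein gene, with 218.2 (123.2 and 97.02), Fgfr3, a brake on growth plate cartilage, with 210.1 (99.6 and 111.5) and the transcription factor gene Runx3 with 117.6 (55.3 and 61.4). Col9a2 had 85.4, the osteoblast regulator Sp7 45.5 and Col9a3 19.9.

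Skeletal muscle genes had 7 of 39 (17.9%, 7.53 to 33.5). Tnni1, the slow troponin I gene, had 334.6 (177.4 and 158.0), the transcription factor gene Mef2d 143.1 (80.5 and 65.5) and Chrna1, an acetylcholine receptor subunit gene, 138.0 (80.2 and 63.8). Myh3, the embryonic myosin heavy chain gene, had 121.8, Myod1 73.6, Tnnt2 55.8 and Acta1 33.5. Of 30 housekeeping genes 3 (10%, 2.11 to 26.5) had a peak: Rab7 with 166.5 (78.1 and 87.3), Eef1a1 with 81.2 (48.1 and 31.3) and Vcp with 26.6. Imprinted genes had 2 of 43 (4.65%, 0.568 to 15.8), Ddc with 332.4 (167.4 and 166.0) and Magel2 with 113.7 (60.1 and 51.5). Of the 21 matched genes of the cohesin and CTCF machinery none had one (0%, up to 16.1%). The interval of the ribosomal protein genes was the only one of the 8 that did not include 11.1%.

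**Figure D5:**
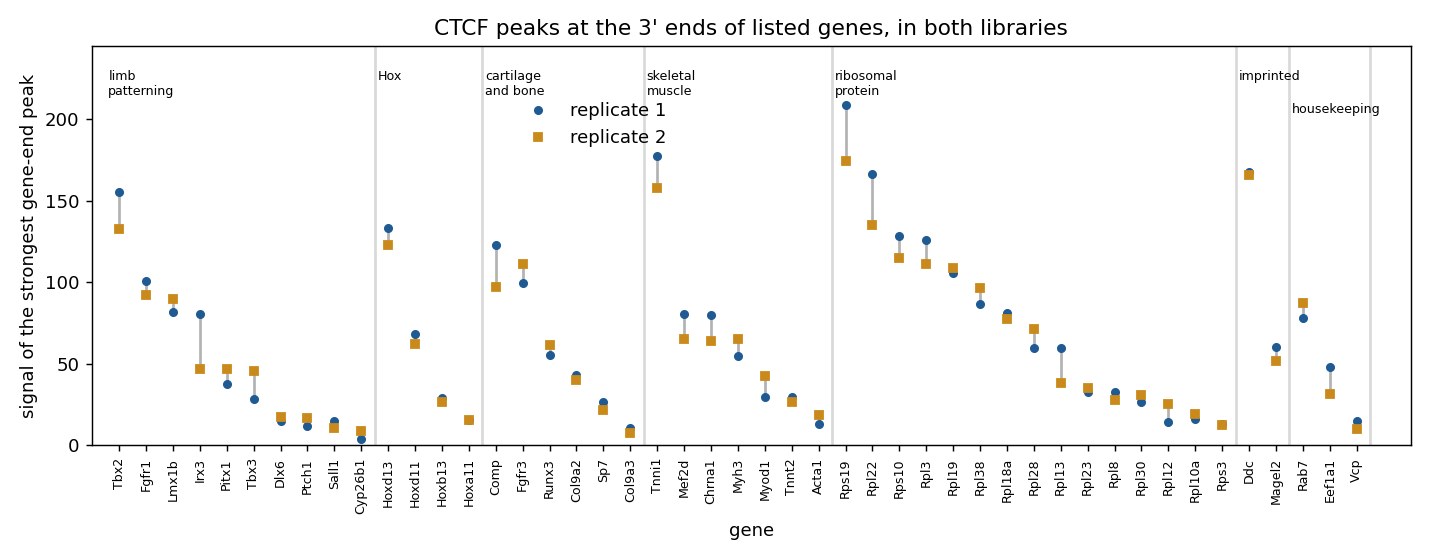
Signal of the strongest gene-end peak of listed genes in replicate 1 (circles) and replicate 2 (squares), each on the scale of its own list, joined by a line, for most of the listed genes with a summit in both libraries. Rps19 is highest, with 208.8 and 174.6.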

How the data were processed

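The data are narrowPeak lists from CTCF chromatin immunoprecipitation sequencing of 2 limb libraries. Per the deposited notes, a replicate list came from the filtered alignments of its library with 1 more file, and the optimal and conservative lists, thresholded on the irreproducible discovery rate, from the pooled and replicate lists, on mm10. No source used here names the aligner, the peak caller or the thresholds, and the labels list an experiment only as a possible control. The pooled list itself was not used here. The authors deposited peak signal without a unit, and its levels are not comparable between lists. No read counts are in the lists, so depth is unknown.

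GENCODE M21 gene models and the GRCm38.p6 sequence were used. Gene-end and other eligible bases were counted exactly, so random positions are all non-gap autosomal bases. A base or summit belonged to its nearest gene end. Density ratios were tested by an exact conditional binomial test, and motif strand by exact binomial and Fisher's exact tests, two-sided, with Benjamini-Hochberg adjustment within each family. Shares have exact Clopper-Pearson 95% intervals, which like the Poisson intervals cover counting error only. The interval of a difference in percentage points is a normal approximation over peaks. A 20 bp motif matrix was refined in 10 rounds on the strongest 1000 optimal peaks of odd-numbered autosomes. Density, class and motif steps were tested on simulated data. Python 3.11.15, numpy 2.4.6, pandas 2.3.3 and scipy 1.17.1 were used.

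The named genes are the 10 strongest gene-end peaks, the 5 strongest of each of the tail-to-tail and head-to-tail classes, the 3 strongest of each list, the 3 ends with most peaks, the 3 closest tail-to-tail pairs with a peak, and the 3 largest and 3 smallest replicate ratios. A limb patterning gene is counted in its list but not reported here by name. Other listed genes with a peak were named after their values were seen. The members and gene lists were chosen with earlier results of these data known. The tests of differences in motif strand, its values outside repeats and those without peaks near ends of both strands were added after seeing the data.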

Additional observations from a re-analysis of the deposited data

How the results depend on the processing

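No paired analysis was possible because both libraries belong to 1 group. The density ratio of gene ends to comparable other sequence kept its direction and passed in all 10 alternatives (1.67 to 2.72). The tail-to-tail to head-to-tail ratio passed only at over 2 kb from every TSS (1.11) and lay below 1 in gaps under 5 kb (0.957), of 20 to 100 kb (0.975) and over 100 kb (0.969). Its value without replicate 2 was 1.06 and without replicate 1 1.03. The sense share passed by its unadjusted p in 13 of 14 alternatives and was 50.3% at tail-to-tail ends alone. Both differences in sense share passed in all 11 of their alternatives, each added after seeing the data (6.19 to 12.9 points for head-to-tail minus tail-to-tail, 5.99 to 10.8 for past minus inside). The share of tail-to-tail and head-to-tail ends with a peak moved with the strongest 50% of peaks (7.55% and 6.57%), windows of 1 kb (6.42% and 5.56%) and 5 kb (24.9% and 22.3%), all protein-coding transcript ends (15.7% and 13.6%) and over 2 kb from a TSS (10.6% and 8.57%). The motif share moved with the conservative list (88.5%), the strongest 50% of peaks (95.2%), 5 kb windows (88.4%) and the score that 1% of flanking windows reached (68.5%). The ratio of median signal of gene-end to other comparable peaks, 1.43, was 1.45 with the conservative list, 1.12 in the strongest 50% of peaks, 1.48 with 1 kb and 1.44 with 5 kb windows, 1.32 with transcript ends, 1.46 at over 2 kb from a TSS, and 1.40 without replicate 2 and 1.42 without replicate 1. The cause was not tested for any of these moves. Depth is unknown, so what it limits cannot be stated.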
